A study of Mus musculus with 4 samples.

Results

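The tripartite motif (Trim) genes were followed in microglia, the resident macrophages of the brain, isolated from mouse embryos at embryonic day 14. Members were all rows of the count table whose symbol is Trim followed by a number and at most 1 letter, and 60 of the 26051 features met this rule. The study removed Hat1, a histone acetyltransferase gene, from microglia by a conditional Cre-loxP knockout, as its design text states. The 4 libraries of poly(A) RNA were compared as ko (libraries 1 and 3) and ff (libraries 2 and 5), with 2 libraries in each group, and ff was taken as the comparison group. Neither the meaning of ff nor the Cre driver, the deleted exons, the strain or the isolation step is given in the labels. How many embryos or litters stand behind a library is not given either, so p-values measure only the spread between these libraries. In ff that spread may be technical. The ko libraries differ in sex-linked transcripts, as given below, so they hold different embryos and their spread includes this difference.

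TRIM proteins carry a RING finger, B-boxes and a coiled coil, and most act as E3 ubiquitin ligases, which attach ubiquitin to chosen target proteins. The part after the coiled coil sorts them into classes. A PRYSPRY domain recognises targets such as viral capsids or antibody, a PHD finger with a bromodomain reads histone tails, NHL repeats bind RNA or protein, and a COS box binds microtubules. Many PRYSPRY members are induced by interferon and act in antiviral signalling of macrophages. In the mouse, relatives of the capsid-binding factor Trim5 have multiplied into the Trim12 and Trim30 genes, which lie beside Trim6 and the Trim34 genes on chromosome 7.

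Of the 60 members, 49 had at least 10 counts over the 4 libraries. The 11 below that number, taken as not measured, were Trim10, Trim29, Trim38, Trim43a, Trim50, Trim58, Trim61, Trim69, Trim72, Trim75 and Trim80. Another 3 were measured but left out of the test by the filter on low counts. Of these, Trim43c had 12 and 6 counts in ff against 0 and 2 in ko, Trim15 had 6 and 9 against 1 and 4, and Trim63 had 7 and 2 against 5 and 1. The remaining 46 were tested, of which 43 had a mean of at least 1 CPM, the usual depth-scaled count computed here on scaled library sizes. A filter that keeps a gene expressed in only 1 group favours genes that differ, so counts over the tested members are not counts over the family.

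The 10 members of the chromosome 7 cluster follow each other in the order Trim6, Trim34a, Trim5, Trim12a, Trim34b, Trim12c, Trim30b, Trim30c, Trim30a and Trim30d, with noncoding genes, pseudogenes and a predicted coding gene between some of them. The order is that of RefSeq on GRCm38, which is not the build the authors aligned to. Promoter windows of 300 bases, 250 before and 50 after the annotated start, are shown for the 3 members that rose in ko and for the pair Trim12a and Trim5, which did not pass. Each sequence is RefSeq's on GRCm38.p6 and reads 5′ to 3′ along the transcript. Capitals mark the longest run that the window shares, letter for letter, with the window of another cluster gene.

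The windows of the members that rose lie at chr7:104465144-104465443 on the minus strand (Trim30a, the upstream of its 2 listed starts), chr7:104507800-104508099 on the minus strand (Trim30d) and chr7:104244207-104244506 on the plus strand (Trim34a).

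Trim30a: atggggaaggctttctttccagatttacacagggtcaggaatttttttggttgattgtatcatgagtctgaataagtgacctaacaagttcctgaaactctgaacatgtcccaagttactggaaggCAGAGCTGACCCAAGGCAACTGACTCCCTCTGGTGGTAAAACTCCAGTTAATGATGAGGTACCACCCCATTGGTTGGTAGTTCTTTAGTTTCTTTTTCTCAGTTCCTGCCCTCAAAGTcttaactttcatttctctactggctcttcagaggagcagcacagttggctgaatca

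Trim30d: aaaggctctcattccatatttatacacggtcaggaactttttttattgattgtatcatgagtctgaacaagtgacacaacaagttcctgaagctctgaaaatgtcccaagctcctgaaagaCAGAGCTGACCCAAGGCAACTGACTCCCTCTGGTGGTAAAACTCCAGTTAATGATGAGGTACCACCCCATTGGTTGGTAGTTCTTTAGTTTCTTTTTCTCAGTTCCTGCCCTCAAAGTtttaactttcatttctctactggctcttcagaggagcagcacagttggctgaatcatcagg

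Trim34a: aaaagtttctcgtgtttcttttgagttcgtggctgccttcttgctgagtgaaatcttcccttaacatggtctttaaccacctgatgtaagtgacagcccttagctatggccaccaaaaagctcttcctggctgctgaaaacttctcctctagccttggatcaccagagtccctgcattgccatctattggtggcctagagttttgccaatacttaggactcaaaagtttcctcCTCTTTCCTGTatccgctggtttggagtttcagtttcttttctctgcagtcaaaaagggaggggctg

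The windows of the other pair lie on the minus strand at chr7:104315446-104315745 (Trim12a) and chr7:104288057-104288356 (Trim5).

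Trim12a: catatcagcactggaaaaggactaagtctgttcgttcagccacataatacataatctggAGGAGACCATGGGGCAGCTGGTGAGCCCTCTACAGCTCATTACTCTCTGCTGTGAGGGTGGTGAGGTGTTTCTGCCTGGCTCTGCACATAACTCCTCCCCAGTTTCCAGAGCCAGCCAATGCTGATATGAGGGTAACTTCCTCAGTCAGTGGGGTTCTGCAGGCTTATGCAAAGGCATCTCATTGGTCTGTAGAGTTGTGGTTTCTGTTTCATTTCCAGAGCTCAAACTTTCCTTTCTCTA

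Trim5: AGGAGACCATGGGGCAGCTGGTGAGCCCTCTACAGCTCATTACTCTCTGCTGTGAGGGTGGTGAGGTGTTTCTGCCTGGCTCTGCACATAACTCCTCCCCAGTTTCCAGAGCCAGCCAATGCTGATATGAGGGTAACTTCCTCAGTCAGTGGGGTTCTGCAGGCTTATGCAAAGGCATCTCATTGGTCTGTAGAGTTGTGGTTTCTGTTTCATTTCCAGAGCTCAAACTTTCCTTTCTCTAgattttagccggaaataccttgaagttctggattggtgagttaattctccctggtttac

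Trim30a, at the start shown, and Trim30d shared a run of 118 bases. Their windows were 90.8% identical over a full alignment, the higher value of the 2 Trim30a starts. At the start not shown, the longest run that Trim30a shared with Trim30d was 31 bases. Trim12a and Trim5 shared a run of 241 bases, which fills bases 60 to 300 of the Trim12a window and bases 1 to 241 of the Trim5 window. The annotated starts thus sit at different places in the same sequence. Over a full alignment the windows of Trim12a and Trim5 were 67.1% identical, fewer than the 82.8% of Trim5 and Trim12c. Trim34a shared no run longer than 11 bases, with Trim34b. Trim30a and Trim30d both rose, as described below. Of the other pair, Trim12a had ko above ff without passing and Trim5 had groups that overlapped, and the difference between these genes was not tested.

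Among the 46 tested members, 3 were higher in ko and 0 were lower by edgeR's quasi-likelihood test, with Benjamini-Hochberg adjustment over all 15840 features and a threshold of 0.05. All 3 that rose, Trim30a, Trim34a and Trim30d, belong to the chromosome 7 cluster. Over all features 1.19% were called higher and 0.518% lower, and 1.70% in either direction, against 6.52% of the tested members called higher. At an unadjusted p under 0.05 there were 6 of 46 members above 0 and 4 of 46 below, against 8.62% and 7.56% of all features. DESeq2 called 4 higher and 0 lower, against 2.05% and 1.31% of all features, and limma-voom called 3 and 0, against 1.07% and 0.467%. The median log2 fold change, ko minus ff, was -0.05 over the members and 0.01 over all features, with 22 members above 0 and 24 below.

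**Figure D1:**
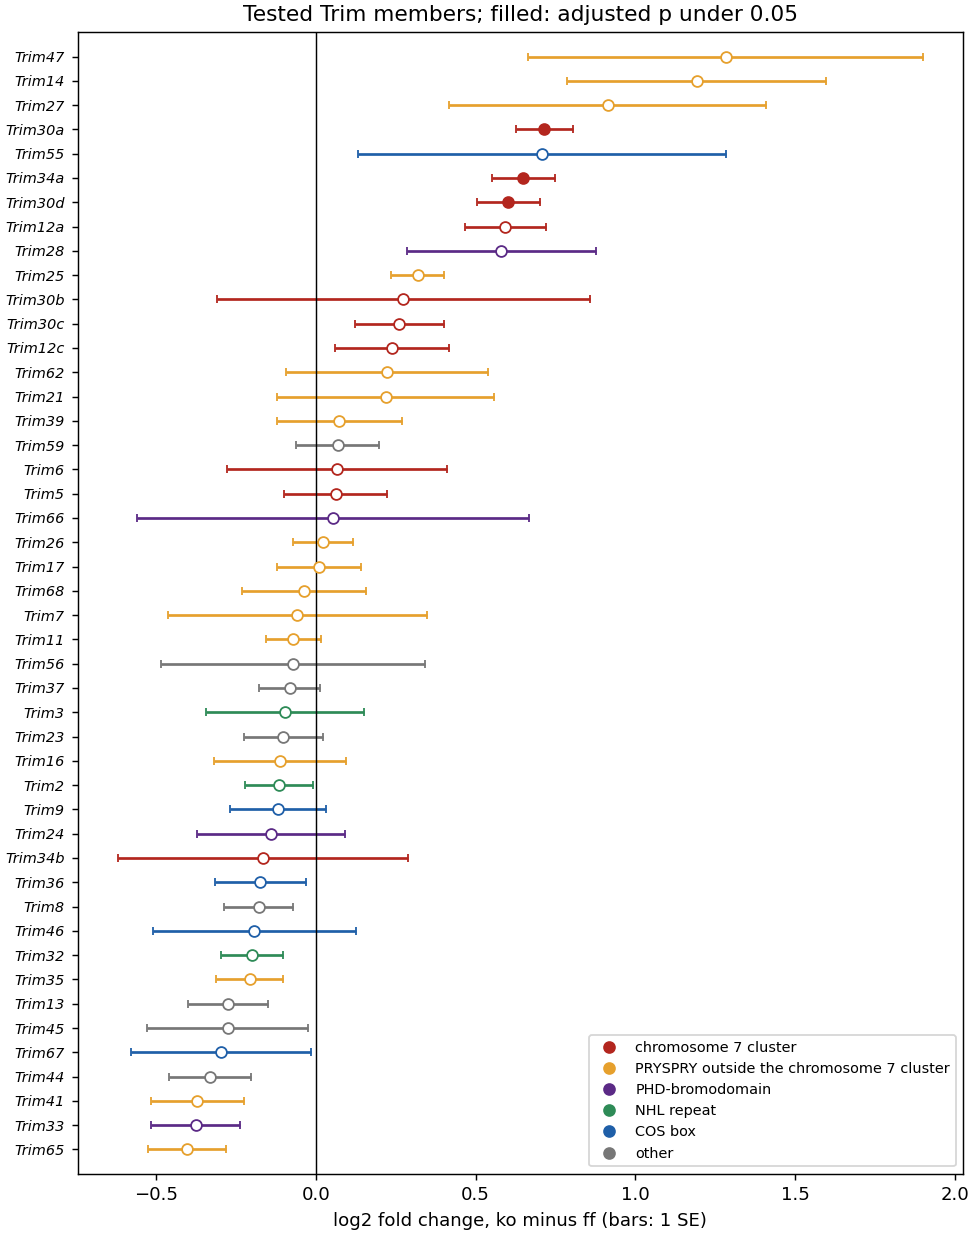
Log2 fold change (ko minus ff, x axis) of each of the 46 tested Trim members, with bars of 1 standard error, coloured by class. The 3 filled points, Trim30a, Trim34a and Trim30d, passed an adjusted p of 0.05 and have short bars, while the points farthest right, Trim47, Trim14 and Trim27, have long bars and did not pass.

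Trim30a, which in mouse macrophages is known to restrain Toll-like receptor signalling to NF-kB by removing the TAB2 and TAB3 adaptors, had 219 and 206 CPM in ff and 373 and 325 CPM in ko. Both ko libraries lay above both ff libraries. The mean went from 213 ± 9.36 to 349 ± 33.5 CPM (SD, n = 2 each), a 1.64-fold rise, with a log2 fold change of 0.71 ± 0.09 (SE) and an adjusted p of 0.00805 by edgeR. Its neighbour Trim30d, a close paralog of less studied function, had 58.6 and 54.8 CPM in ff and 92.1 and 80.0 CPM in ko. The groups did not overlap, and the log2 fold change was 0.60 ± 0.10 (adjusted p = 0.0289, edgeR). Without ff library 5 the adjusted p of Trim30d was 0.0544.

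Trim34a, a relative of the human restriction factor TRIM34, had 58.7 and 50.6 CPM in ff and 87.8 and 83.4 CPM in ko. Again the groups were apart, with a log2 fold change of 0.65 ± 0.10 and an adjusted p of 0.0208 by edgeR. In the annotation used here, 23.5% of the exon bases of Trim34a also lie in an exon of a predicted gene on the opposite strand, and the strand setting of the counting is not given in the sources used here. Of the 150-base windows of its transcripts, 8.06% also occur in another gene of the cluster. The same share was 3.48% in Trim30a and 3.23% in Trim30d. How shared reads were assigned is not given either, so values of close paralogs are uncertain to that degree. With the Trim30, Trim12 and Trim34 copies each summed, the Trim30 and Trim34 sums passed and the Trim12 sum did not (adjusted p = 0.0813, edgeR). Most counts of the sums that passed come from genes that passed singly, such as Trim34a with 4647 counts against 78 for Trim34b. The sums therefore cannot decide how shared reads affect single copies.

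Trim12a, a mouse relative of the capsid-binding factor TRIM5, had 25.8 and 26.0 CPM in ff and 42.6 and 35.4 CPM in ko. The groups were apart, but the log2 fold change of 0.59 ± 0.13 did not pass (adjusted p = 0.0730, edgeR). DESeq2 gave an adjusted p of 0.0438. Trim12c, its copy, had 9.48 and 9.63 CPM in ff and 11.5 and 11.0 CPM in ko, with a log2 fold change of 0.24 ± 0.18 (adjusted p = 0.547, edgeR).

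The other members of the cluster did not pass either. Trim30c, which sits next to Trim30a, had 42.5 and 32.3 CPM in ff and 45.2 and 44.5 CPM in ko, a log2 fold change of 0.26 ± 0.14 (adjusted p = 0.403, edgeR). Here the ff libraries were farther apart than the ko libraries, though the groups did not overlap. Trim5, chosen after its values were seen, had 22.7 and 21.1 CPM in ff and 25.9 and 19.7 CPM in ko. Its groups overlapped, with a log2 fold change of 0.06 ± 0.16 (adjusted p = 0.891, edgeR). Trim6, also chosen afterwards to complete the cluster, had a log2 fold change of 0.07 ± 0.34. The 2 scarcest members were near 1 CPM, where Trim34b had a log2 fold change of -0.17 ± 0.45 and Trim30b one of 0.27 ± 0.58.

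**Figure D2:**
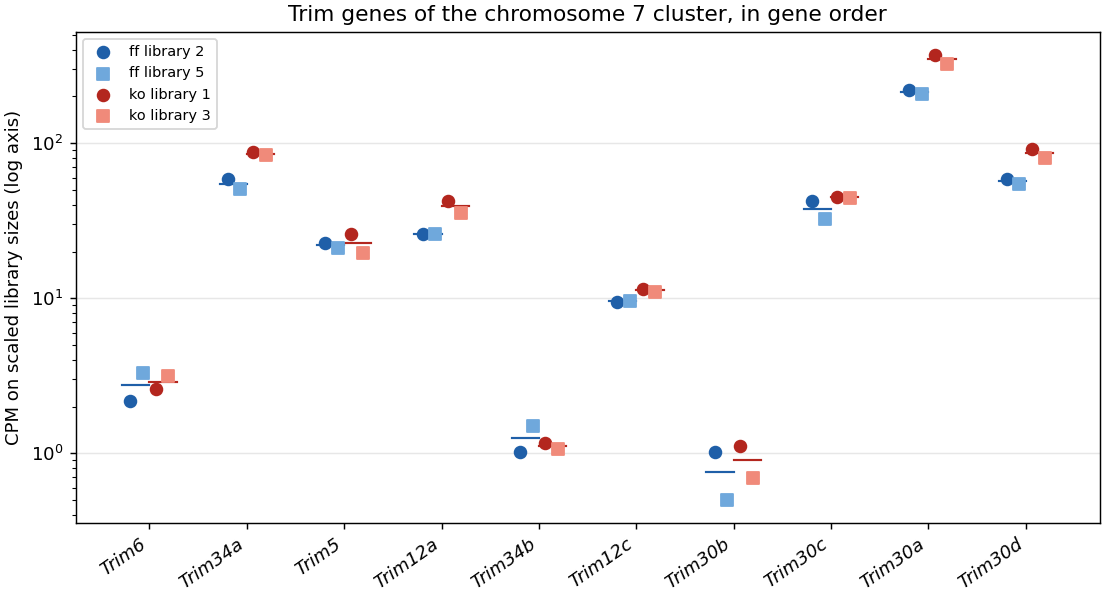
Expression in CPM (log axis) of the 10 chromosome 7 cluster genes in each library, in gene order along the x axis, with horizontal lines at the mean of each group. The red ko points lie above the blue ff points for Trim34a, Trim12a, Trim12c, Trim30c, Trim30a and Trim30d, and the points are mixed for Trim5, Trim6, Trim34b and Trim30b.

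Summed over the 10 cluster genes, expression was 441 and 406 CPM in ff and 683 and 604 CPM in ko. The ratio of the means was 1.52. The 50 members outside the cluster summed to 1465 and 1435 CPM in ff and 1433 and 1406 CPM in ko, a ratio of 0.979. The cluster thus held 23.2% and 22.0% of the family's counts in ff and 32.3% and 30.0% in ko. Within it Trim30a held 11.5% and 11.2% of family counts in ff and 17.6% and 16.2% in ko. The cluster sums include Trim30a, Trim30d and Trim34a, the members called higher, so they do not show a rise across the cluster. Trim30a alone went from a mean of 212.6 CPM in ff to 348.8 in ko, within cluster means of 423.5 and 643.3 CPM. These sums describe the libraries and were not tested. An exact two-sided permutation of 2 libraries against 2 could give no p under 0.333.

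In 11 of the 46 tested members (23.9%) both ko libraries lay above both ff libraries, where 25.8% of all features did. In another 11 (23.9%) they lay below, where 23.8% of all features did. Those shares are near the background. By position, 6 of 10 cluster members had ko above and 0 had ko below, while outside the cluster 5 of 36 had ko above and 11 had ko below. Outside the cluster 0 of 36 passed by edgeR, DESeq2 or limma-voom, against 1.70%, 3.36% and 1.54% of all features. At an unadjusted p under 0.05 (edgeR) there were 6 (16.7%, against 16.2% of all features). These counts are near the background. The median log2 fold change outside the cluster was -0.09. The median in the cluster was 0.27. The difference between the sets was not tested.

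Levels of different genes were compared as CPM per kilobase of annotated exon. Trim35, a PRYSPRY member with a reported part in blood lineage choice, had 86.5 and 77.2 CPM per kb in ff. In ko it had 64.7 and 77.2 CPM per kb. Trim30a had 58.1 and 54.6 CPM per kb in ff and 98.8 and 86.2 CPM per kb in ko. So Trim35 led the family in both ff libraries and Trim30a in both ko libraries, while their means over all 4 libraries, 76.4 and 74.4 CPM per kb, were closer than either gene's spread. The fold change of Trim35 itself did not pass (log2 fold change -0.21 ± 0.10, adjusted p = 0.382, edgeR).

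Next by mean level per kilobase was Trim26, a ligase with reported roles in interferon signalling, at 38.3 ± 2.51 CPM per kb in ff and 39.0 ± 3.59 in ko. Trim34a followed at 21.1 ± 2.22 CPM per kb in ff and 33.0 ± 1.22 in ko. Trim32 came after it by the mean, at 26.9 ± 1.12 CPM per kb in ff and 23.4 ± 2.48 in ko. Both Trim32 values lay above those of Trim34a in the ff libraries and below them in the ko libraries. The ff level of Trim34a was within the spread of those of Trim30c (21.8 ± 4.22), Trim8 (22.4 ± 2.53) and Trim11 (21.2 ± 1.14 CPM per kb), and its ko libraries lay above those of all 3. The order among Trim30c, Trim8 and Trim11 in ff does not exceed their spread between libraries.

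**Figure D3:**
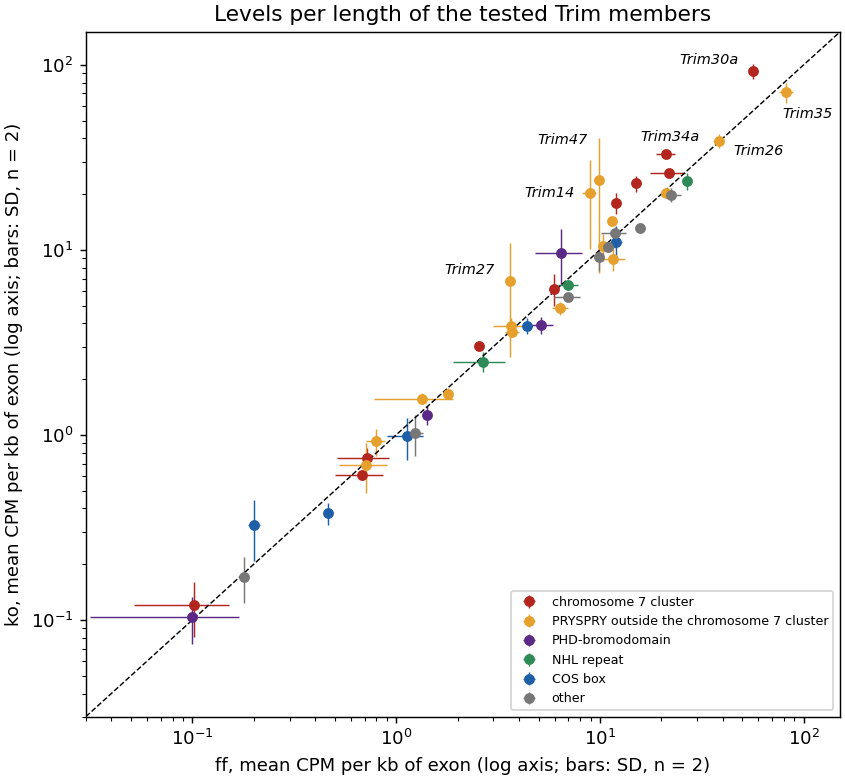
Mean CPM per kilobase of exon in ff (x axis) and ko (y axis), both on log axes, for the tested members, with bars of 1 SD over 2 libraries and a dashed line of equality. Trim30a and Trim34a lie above the line with short bars, Trim35 lies just below it, and Trim47, Trim14 and Trim27 have long vertical bars.

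The largest log2 fold changes in the family, outside the cluster, came with widely separated ko libraries. Trim47, a PRYSPRY ligase, had 21.0 and 22.4 CPM in ff but 78.1 CPM in ko library 1 and 27.2 CPM in ko library 3. Its log2 fold change was 1.28 ± 0.62 (adjusted p = 0.439, edgeR), and ko library 1 decides it. Leaving out ko library 3 gave 1.84, and leaving out ko library 1 gave 0.31.

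Trim14, which lacks a RING finger and serves as an adaptor of MAVS signalling at mitochondria, had 20.6 and 18.4 CPM in ff and 60.1 and 28.6 CPM in ko. Both ko libraries lay above ff, yet the log2 fold change of 1.19 ± 0.40 did not pass (adjusted p = 0.292, edgeR). The log2 fold change of Trim14 was 0.54 without ko library 1 and 1.62 without ko library 3. Without ff library 2 it was 1.27, and without ff library 5 it was 1.08. In the annotation used here 7.44% of its exon bases overlap an exon on the opposite strand.

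Trim27, a nuclear and cytoplasmic ligase first known from a fusion with the Ret kinase, had 16.0 and 15.5 CPM in ff and 42.2 and 16.8 CPM in ko. The second ko library was thus close to ff, and the log2 fold change was 0.91 ± 0.50 (adjusted p = 0.467, edgeR). It was 1.42 without ko library 3 and 0.09 without ko library 1. Trim28, the corepressor that brings the histone methyltransferase SETDB1 to KRAB zinc finger proteins, had 17.1 and 24.9 CPM in ff and 38.8 and 24.0 CPM in ko. Its groups overlapped, with a log2 fold change of 0.58 ± 0.30 (adjusted p = 0.411, edgeR). The value was 0.88 without ko library 3 and 0.18 without ko library 1.

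In 5 tested members, these 4 and the scarce Trim55, ko library 1 was at least 1.5-fold above each of the other 3 libraries, as it was in 4.10% of all features. That library also differed in sex-linked transcripts. It had 170 CPM of Ddx3y, 56.3 CPM of Uty and 0.160 CPM of Xist, whereas the other libraries had 0 CPM of Ddx3y and of Uty and between 194 and 251 CPM of Xist. The part of this in the values of Trim47, Trim14, Trim27 and Trim28 was not tested.

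**Figure D4:**
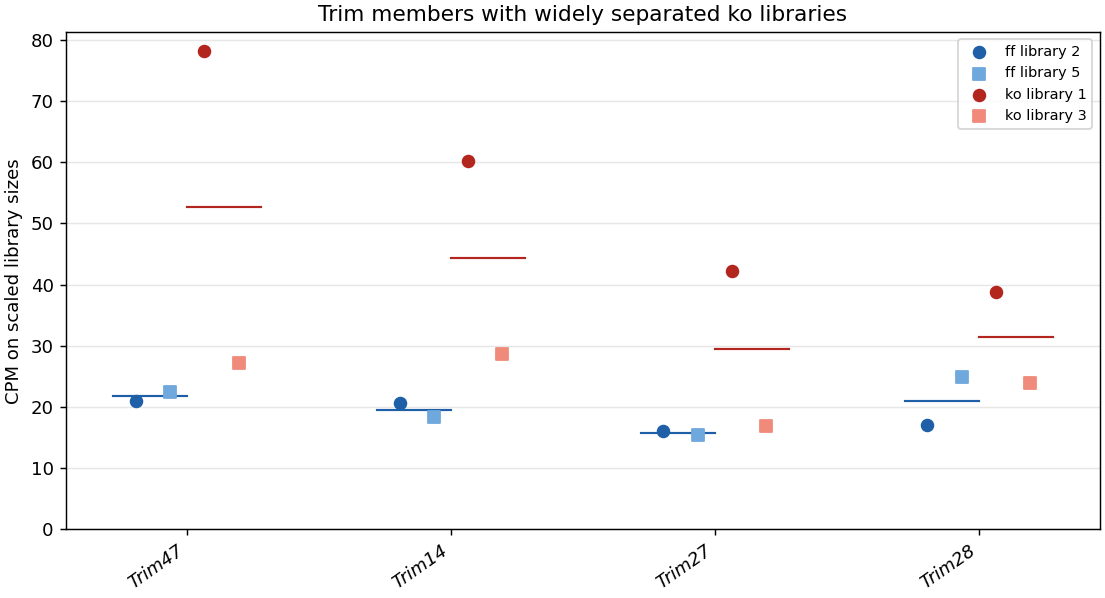
Expression in CPM of Trim47, Trim14, Trim27 and Trim28 in each library, with horizontal lines at the mean of each group. The ko library 1 point is the highest for each gene, at 78.1 CPM for Trim47, while ko library 3 lies near the ff points for Trim27 and Trim28.

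Other members with a role in RNA sensing did not pass. Trim25, which ubiquitinates the RNA sensor RIG-I, had 66.8 and 65.3 CPM in ff and 80.3 and 84.3 CPM in ko. Its groups were apart with little spread, at a log2 fold change of 0.32 ± 0.08 (adjusted p = 0.122, and 0.0298 with no filter on low counts, edgeR). With no filter, 5.32% of all features were called, against 1.70% in the main test. Leaving out 1 library gave log2 fold changes of Trim25 from 0.28 to 0.34. Trim65, which acts on the sensor MDA5, had 39.5 and 34.7 CPM in ff and 29.6 and 26.5 CPM in ko. Its log2 fold change was -0.40 ± 0.12 (adjusted p = 0.182, edgeR), and ran from -0.52 to -0.31 when 1 library was left out. Trim21, the cytosolic antibody receptor, was also chosen after its values were seen. It was scarce, between 2.05 and 2.88 CPM, with a log2 fold change of 0.22 ± 0.34. Trim26 had a log2 fold change of 0.02 ± 0.09.

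The 4 PHD-bromodomain members, nuclear proteins that read histone tails, had 0 calls by edgeR, DESeq2 or limma-voom, against 1.70% of all features by edgeR. At an unadjusted p under 0.05 (edgeR) there was 1, against 16.2% of all features. In a class this small, these counts are near those shares. The member was Trim33, a partner of the Smad factors. It had 50.3 and 40.5 CPM in ff and 37.6 and 32.3 CPM in ko. Its ko libraries lay below ff, at a log2 fold change of -0.38 ± 0.14 (adjusted p = 0.244, edgeR). Leaving out 1 library gave values from -0.55 to -0.21. Trim24, a cofactor of the retinoic acid receptor, had a log2 fold change of -0.14 ± 0.23, and Trim66, expressed mainly in testis and here near 1 CPM, one of 0.05 ± 0.61.

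All 3 NHL members had log2 fold changes below 0 and none was called by edgeR, DESeq2 or limma-voom. At an unadjusted p under 0.05 (edgeR) there were 0. Over all features edgeR called 1.70%, and 16.2% had an unadjusted p under 0.05, so 0 of 3 is near the background. Trim32, a ligase mutated in a limb-girdle muscular dystrophy, had 83.3 and 88.4 CPM in ff and 69.2 and 80.4 CPM in ko, a log2 fold change of -0.20 ± 0.10. Trim2, which targets neurofilament light chain, had a log2 fold change of -0.11 ± 0.11, and Trim3 one of -0.10 ± 0.25.

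Among the COS box members 0 of 5 passed by any of the 3 tools, against 1.70% of all features by edgeR. At an unadjusted p under 0.05 (edgeR) there were 0, against 16.2% of all features. In a class this small, 0 is near those shares. Trim9, a ligase of axon guidance in neurons, had 100 and 110 CPM in ff and 82.3 and 112 CPM in ko (log2 fold change -0.12 ± 0.15). Its relative Trim67 had a log2 fold change of -0.30 ± 0.28 at 2.98 to 4.10 CPM. Summed CPM of 6 neuron markers was 201 and 221 in ff and 158 and 192 in ko, lowest in ko library 1 like Trim9. In ko library 3 the sum lay below both ff libraries, whereas Trim9 had its highest value there. The part of neurons in the Trim9 values was not tested.

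The remaining members named for level or size also did not pass. Trim41 had a log2 fold change of -0.37 ± 0.15 (adjusted p = 0.273, edgeR), and of -0.53 to -0.22 when 1 library was left out. Trim44, which carries a ubiquitin protease type zinc finger instead of a RING, had one of -0.33 ± 0.13. Trim8, a regulator of cytokine signalling through SOCS1, had -0.18 ± 0.11, Trim11 had -0.07 ± 0.09, the centrosome regulator Trim37 had -0.08 ± 0.10 and Trim23 had -0.10 ± 0.12, all as log2 fold changes. Apart from Trim5, Trim6 and Trim21, 13 tested members lay outside the rule for named genes, Trim55 included. Their log2 fold changes ran from -0.28 to 0.71 and adjusted p from 0.334 to 0.980 (edgeR), with 8 below 0 and 5 above.

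Genes that work with TRIM proteins were read from the same fit. Of 78 pathway genes 9 were higher and 0 lower, against 1.19% and 0.518% of all features, with a median log2 fold change of 0.03. At an unadjusted p under 0.05 (edgeR) there were 18 above 0 (23.1%) and 5 below (6.41%), against 8.62% and 7.56% of all features. In either direction this share was 50.0% in RNA and DNA sensing and 41.7% in autophagy partners. It was 23.1% in NF-kB and TAK1, 17.6% in ubiquitin and 16.7% in chromatin partners, against 16.2% of all features. RNA and DNA sensing held 6 of the 9 rises among its 18 genes. Its largest were the transcription factor Irf7 (log2 fold change 2.60 ± 0.13, adjusted p = 8.6e-05, edgeR) and the nucleic acid sensor Zbp1 (2.27 ± 0.14). Rigi, the sensor that Trim25 modifies, had 52.8 and 53.2 CPM in ff and 111 and 106 CPM in ko (1.03 ± 0.08), and Ifih1, the MDA5 that Trim65 modifies, had a log2 fold change of 0.99 ± 0.09. The helicase Dhx58 (1.00 ± 0.10) and the antiviral protein Zc3hav1 (0.66 ± 0.09) also rose.

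In the ubiquitin list 2 of 17 rose, both of ISG15 conjugation: the conjugating enzyme Ube2l6 (1.31 ± 0.11) and the activating enzyme Uba7 (0.61 ± 0.10). Without ff library 5 the adjusted p of Uba7 was 0.0502 by edgeR. DESeq2 also called the conjugating enzyme Ube2d3 higher (adjusted p = 0.0268), where edgeR gave 0.218. Among autophagy partners 1 of 12 rose, Map1lc3a, with a log2 fold change of 0.53 ± 0.09 and an adjusted p of 0.0292, or 0.0757 without ff library 2, by edgeR. None of 13 NF-kB and TAK1 genes passed by edgeR, with 3 at an unadjusted p under 0.05. The same held for 18 chromatin partners of Trim28, Trim24 and Trim33, also with 3. DESeq2 and limma-voom called 0 in either list. Of the 4 TRIM-domain genes without a Trim number, Pml, Mid1, Mid2 and Mefv, none passed by the 3 tools, with 1 at an unadjusted p under 0.05. Over all features edgeR called 1.70%, and 16.2% had an unadjusted p under 0.05. Pml, which builds nuclear bodies, had 99.8 and 87.3 CPM in ff and 110 and 110 CPM in ko (log2 fold change 0.23 ± 0.09). Beside these, 30 of 34 interferon response genes were higher and 0 lower by edgeR, against 1.19% and 0.518% of all features. Their median log2 fold change was 1.25. Irf7, Zbp1 and Ifih1 are in both lists, and earlier results of these data were known when both were written.

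Total counts per library ran from 14814846 to 18990917, and Trim genes took between 0.186% and 0.209% of them. Hat1 had 44.3 and 71.4 CPM in ff and 39.2 and 36.6 CPM in ko (log2 fold change -0.61 ± 0.23, adjusted p = 0.298, edgeR), so transcript remained in the libraries labelled ko. That value depended on the library left out: it was -0.25 without ff library 5 (adjusted p = 0.534), -0.91 without ff library 2 (0.00286), -0.67 without ko library 1 (0.000114) and -0.57 without ko library 3 (0.612). Microglia markers were present, with 7 genes summing to 11080 and 10820 CPM in ff and 9349 and 8965 CPM in ko. Within that list Tmem119 was higher and Cx3cr1 lower in ko, with log2 fold changes of 0.61 and -0.92, and P2ry12 did not pass at -0.03. The 8 markers of border-associated macrophages summed to more, 18390 and 16020 CPM in ff and 12760 and 14490 CPM in ko, and were at 0 in no library. Of these, 7 had log2 fold changes below 0, and the haemoglobin scavenger receptor Cd163 was lower in ko (-0.87 ± 0.10, adjusted p = 0.00400, edgeR). Mrc1 had an adjusted p of 0.0561 by edgeR and 0.00370 by DESeq2, at a log2 fold change of -0.45. Sums in ff and ko were 46.3 to 53.5 and 69.3 to 72.9 CPM for 6 monocyte and neutrophil markers, 21.9 to 28.6 and 44.5 to 46.5 for 9 lymphocyte markers, and 249 to 351 and 402 to 556 for 6 mural and fibroblast markers. Ccr2 of the monocyte list (log2 fold change 0.51) and Gzma of the lymphocyte list (3.95) were called higher, with adjusted p of 0.0405 and 0.0131 by edgeR. The part of these cells in the Trim values was not tested, and in bulk RNA fewer cells of a type and less RNA per cell cannot be told apart.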

How the data were processed

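Poly(A) RNA was sequenced from 4 libraries, 2 per group, and groups were read from the sample titles. Per the submitters' processing notes and the series' design text, reads were aligned with HISAT2 2.0.5 to GRCm39. Which tool counted reads, with which strand setting and annotation, is not given in the sources used here. Values deposited by the authors are raw counts per gene, although the design text speaks of FPKM. Of 26054 lines, 3 held stray text without counts and were left out.

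Features were kept by edgeR's filterByExpr (15840, holding 99.85% of counts), scaled by trimmed mean of M-values and tested with edgeR 4.0.16 (robust quasi-likelihood, R 4.3.3) on the raw counts, with Benjamini-Hochberg adjustment over all of them. The pipeline was tested on simulated data. CPM is on scaled library sizes. The standard error is the log2 fold change divided by the root of the F statistic. Between the 2 libraries of a group, chi-square divided by its degrees of freedom was 7.25 in ff and 13.9 in ko, above the 1 of pure sampling noise. DESeq2 1.42.0, limma-voom (limma 3.58.1), other scalings and filters, leaving out each library, and summed paralogs were the alternatives.

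Exon lengths, overlaps and transcripts came from GENCODE M21 (GRCm38), matched by symbol for all 60 members. Promoter windows came from RefSeq. Classes and gene lists were written by hand, and members and lists were chosen with earlier results of these data known. The text names members past the threshold, the 10 highest of the rest, the 5 largest and 5 smallest log2 fold changes from 1 CPM up, and all Trim12, Trim30, Trim34, PHD-bromodomain and NHL members. Trim5, Trim6, Trim21 and Trim55 were added after their values were seen.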

Additional observations from a re-analysis of the deposited data

How the results depend on the processing

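Trim30a and Trim34a were called higher in ko under every alternative run on single genes, and Trim30d under all but the one without ff library 5. The count of members higher in ko was 3, rose to 6 with no filter on low counts (Trim12a, Trim25 and Trim28 added), and lay between 2 and 8 when 1 library was left out. The count lower in ko was 0, rose to 2 with no filter (Trim33 and Trim65), and lay between 0 and 2 when 1 library was left out. Without ko library 3, 8 were higher and 1 lower, with 1213 calls over all features against 270. Without ko library 1, 4 were higher and 2 lower (Trim33 and Trim65), with 996 calls over all features. Calls over all features were 532 by DESeq2, 1386 with no filter and 450 without ff library 5. Pathway genes higher in ko numbered 8 to 14 and those lower 0 to 1 when 1 library was left out. The cause was not tested.

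When 1 library was left out, log2 fold changes turned sign in 17 of 46 tested members, 0 of them called: 9 named ones and 8 others. In the 9 they ran from -0.077 to 0.10 in Trim26, -0.36 to 0.078 in Trim9, -0.29 to 0.054 in Trim23, -0.16 to 0.24 in Trim5, -0.36 to 0.21 in Trim3, -0.20 to 0.37 in Trim6, -0.41 to 0.11 in Trim34b, -0.55 to 0.99 in Trim66 and -0.19 to 0.86 in Trim30b. A group left with 1 library is assumed to vary like the other. Members near 1 CPM have few counts, which limits what could be detected. No paired analysis was possible because the groups share no replicate numbers.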
